A study of Mus musculus with 9 samples.

Results

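The H3K27ac, CTCF and RAD21 interactions of the promoters of Klf2, Klf4 and Klf5 were examined in mouse embryonic stem cells. A bin pair was taken when 1 of its bins lay within 2 kb of a transcript start of one of the 3 genes (mm10, GENCODE M21). Of 137744 bin pairs in 4 lists of called interactions, 113 met this rule: 53 of 36274 in the untreated H3K27ac list, 49 of 28210 in the H3K27ac list after IAA, 6 of 49630 in the CTCF list and 5 of 23630 in the RAD21 list. A second step took the H3K27ac bin pairs that joined the partner bins of these promoters to other places, 170 untreated and 131 after IAA.

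All libraries were MNase HiChIP of E14 cells with the genotype CTCF AID, so the untreated controls carry the tagged CTCF as well. AID is a degron tag through which the auxin IAA triggers degradation of the tagged protein. The cells grew without serum, with LIF, PD0325901 and CHIR99021. The H3K27ac antibody was used on 2 replicates without IAA and on 2 replicates given IAA for 12 h. Antibodies to CTCF (2 replicates) and to RAD21 (3 replicates) were used on cells without IAA. The authors merged the replicates of each group into 1 list. The spread between replicates is therefore unknown for every value here, and a test between the H3K27ac lists compares pooled libraries, not conditions. The level of CTCF protein after IAA was not analysed here, and the labels do not say whether the line is 1 clone. All 6 embryonic stem cell markers (Pou5f1, Sox2, Nanog, Zfp42, Esrrb and Tfcp2l1) had a start bin marked as an H3K27ac peak in both lists. Of 13 markers of endoderm, mesoderm, trophoblast, neural and feeder cells, Eomes, Cdx2 and Col1a1 had such a start bin in the untreated list, and the tally in the IAA list was 0. A start bin can be read only where it is in a called pair, so an absent one does not show that the mark was missing. The IAA list is also shorter than the untreated list. The part of these differences in marker tallies in the results was not tested.

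KLF2, KLF4 and KLF5 are zinc finger transcription factors that bind GC-rich CACCC-type boxes and help to maintain naive pluripotency. Klf4 responds to LIF through STAT3 in these cells, and Klf2 is linked to the inhibition of MEK. HiChIP ligates DNA that is near in the nucleus and enriches the products with an antibody, here against a mark of active promoters and enhancers, against the insulator protein CTCF or against the cohesin subunit RAD21.

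The start regions of Klf2 and Klf4 are shown because each is the fixed end of the contacts described here, and because KLF factors bind such boxes. Sequences are from the RefSeq promoter table (GRCm38.p6), each the first 180 bases of a 300-base window around the start, read along the gene. Capitals mark matches to CCNCNCCC on either strand, with overlapping matches merged.
Klf2, chr8:72318812-72318991, plus strand: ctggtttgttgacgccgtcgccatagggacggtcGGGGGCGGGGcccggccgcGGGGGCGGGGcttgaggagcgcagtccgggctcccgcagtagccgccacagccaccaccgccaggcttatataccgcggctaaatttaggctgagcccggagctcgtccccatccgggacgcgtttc
Klf4, chr4:55532546-55532725, minus strand: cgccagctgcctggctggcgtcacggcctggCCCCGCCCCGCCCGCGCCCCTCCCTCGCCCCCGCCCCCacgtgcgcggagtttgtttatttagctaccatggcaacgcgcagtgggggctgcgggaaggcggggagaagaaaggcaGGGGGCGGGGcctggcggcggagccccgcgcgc
The Klf2 window held 4 matches, a number reached by 12.5% of 32851 promoters, and the Klf4 window held 9, reached by 1.66%. At least 1 match was present in 49.5% of all promoters.

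For each gene, the partner region with the most untreated contacts in pairs called in both lists is shown by its matches to the motifs of factors known in naive cells: STAT (TTCNNNGAA, both strands), ESRRB (TCAAGGTCA) and the octamer bound by POU5F1 (ATTTGCAT). Each line is 40 bases of the plus strand (GRCm38), with the match in capitals.
Klf2 STAT, chr8:72329883-72329922: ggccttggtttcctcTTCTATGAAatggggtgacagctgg
Klf4 STAT, chr4:55474116-55474155: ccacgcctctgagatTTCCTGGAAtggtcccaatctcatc
Klf4 STAT, chr4:55475607-55475646: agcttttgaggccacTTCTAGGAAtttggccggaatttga
Klf4 ESRRB, chr4:55476410-55476449: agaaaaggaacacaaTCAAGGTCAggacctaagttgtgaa
Klf4 STAT, chr4:55478831-55478870: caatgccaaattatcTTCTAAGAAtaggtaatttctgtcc
Klf5 STAT, chr14:99354910-99354949: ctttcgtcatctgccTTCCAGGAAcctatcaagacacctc
Klf5 octamer, chr14:99355517-99355556: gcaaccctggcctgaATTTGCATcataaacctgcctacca
The Klf2 match lies in chr8:72328001-72330000, a bin with 1 pair, in the IAA list only, and the 4 bins with the shared contacts of that region held 0 STAT matches. Among all 33558 bins of 2 kb in the H3K27ac lists, 44.4% held a STAT match, 8.26% an ESRRB match and 9.48% an octamer. A STAT match was in 9 of 21 partner bins of Klf2, in 4 of 10 of Klf4 and in 3 of 6 of Klf5, near the share of all bins. An ESRRB match was in 2 of 21, 2 of 10 and 0 of 6 partner bins of Klf2, Klf4 and Klf5, and an octamer in 3 of 21, 0 of 10 and 2 of 6, counts too small to set against those shares.

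The 3 promoters differed widely in how many H3K27ac bin pairs they had. Klf2 had 32 untreated and 27 after IAA, Klf4 17 and 18, and Klf5 4 and 4. From the bins that hold a start alone, Klf2 had 12 and 10 pairs, Klf4 14 and 13, and Klf5 4 and 2. The Klf2 count comes from 1 such bin, and the Klf4 count from 2 with 7 untreated pairs each. The order of Klf2 and Klf4 thus depends on the bins counted. Among 21951 protein-coding genes, 7965 had any such pair in the untreated list, with a median of 3. More pairs than Klf2 were listed for 71 genes, more than Klf4 for 313 and more than Klf5 for 2580. Neighbouring bins often describe the same pair of regions, so the pairs of 1 promoter are not independent of each other.

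**Figure D1:**
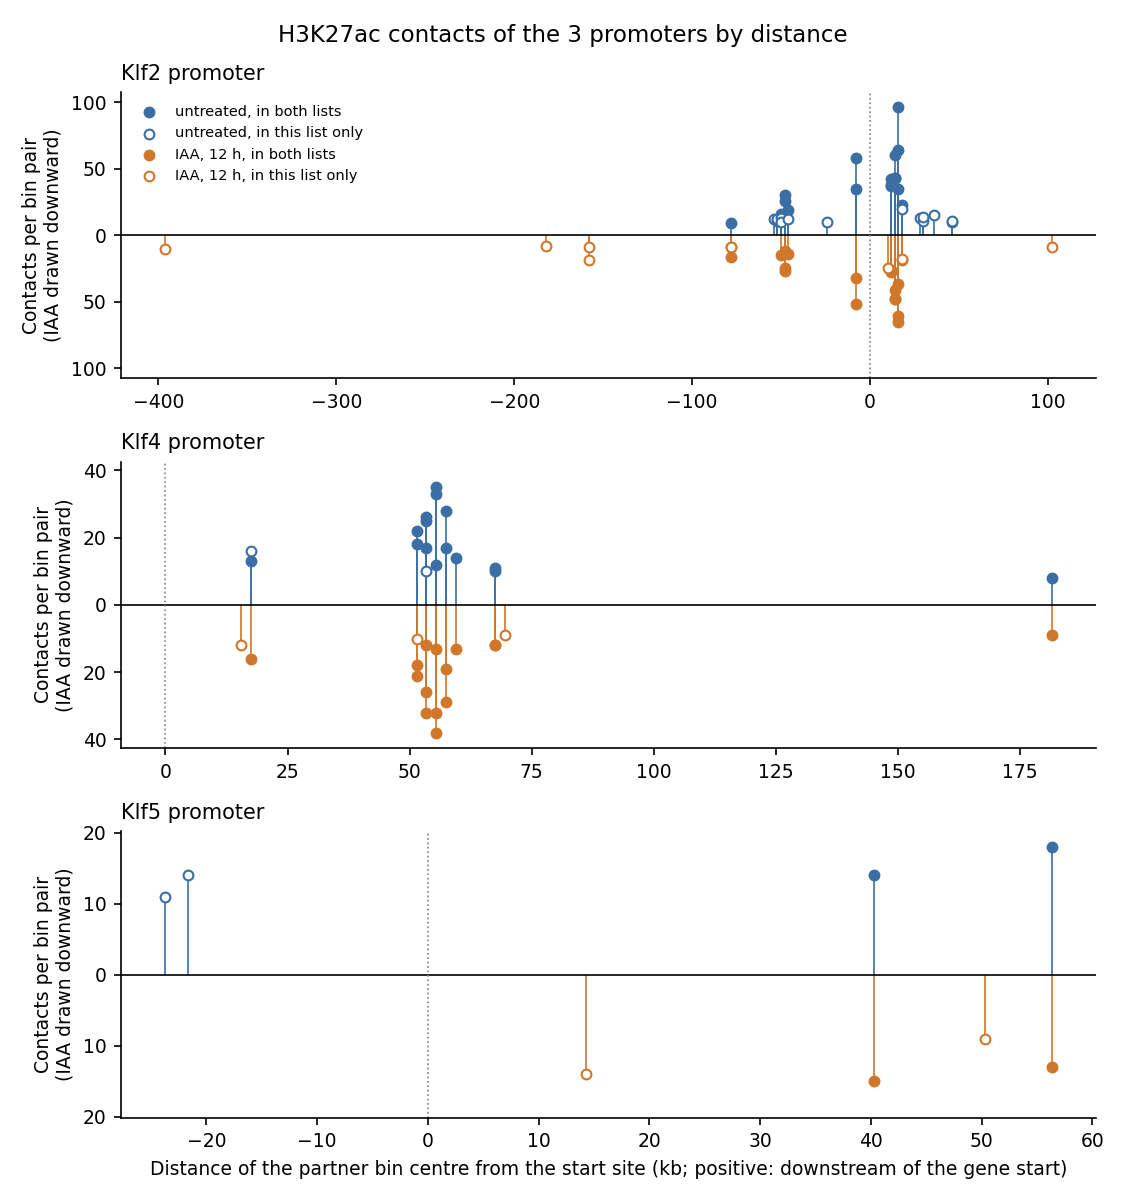
Contacts per bin pair (untreated upward, IAA downward) against the distance of the partner bin from the start site in kb, 1 panel per gene. Filled points are pairs in both lists and open points pairs in 1 list; Klf2 partners lie on both sides, all Klf4 partners lie downstream, and Klf5 has 6 pairs in all.

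The Klf2 promoter (ENSMUSG00000055148.7, chr8:72319033-72321656, plus strand) made most of its contacts with intergenic DNA just downstream of the gene. The 5 bins of chr8:72328001-72338000, centred 14.0 kb from the start, held 69.9% of the untreated contacts in pairs called in both lists. The pair of the start bin with chr8:72334001-72336000 had 96 contacts untreated, 14.4 times the 6.66 the authors' model predicted, and 61 after IAA. The bin before the start bin met the same partner with 64 contacts untreated and 65 after IAA. The start bin met the neighbouring partner chr8:72332001-72334000 with 60 contacts untreated and 48 after IAA, so its strongest downstream partners lie side by side. Contacts of this partner with the bin before the start bin numbered 43 and 48, and those with the bin after it 43 and 41.

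On the upstream side, the Klf2 promoter met an intergenic bin 8.03 kb away, chr8:72310001-72312000. The bin before the start bin had 58 contacts with it untreated and 52 after IAA. A wider upstream region, chr8:72264001-72274000, with bins 46.0 to 54.0 kb away, was joined by 11 pairs with 175 contacts untreated and by 5 pairs with 93 contacts after IAA. All 5 of those pairs were in both lists, where their contacts numbered 105 untreated and 93 after IAA (log2 ratio -0.15, 95% interval -0.56 to 0.27). Called again were thus 5 of 11 untreated pairs, near the 42.9% of all untreated H3K27ac pairs. The interval for those that stayed spanned 0.

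Of the 32 untreated Klf2 pairs, 18 were called again after IAA (56.3%, 95% Wilson interval 39.3 to 71.8%), against 42.9% of all untreated H3K27ac pairs. Over these 18 pairs the promoter had 688 contacts untreated and 593 after IAA. Scaled by the totals over all shared pairs, the log2 ratio was -0.19 (95% Clopper-Pearson interval -0.35 to -0.02), and it was -0.44 with the model totals and -0.34 with the coverage of the promoter bins. Of the 18 pairs, 14 had a ratio below 0, against 46.2% of all shared pairs, and with the model totals 17 did, against 72.0% of all. These intervals cover counting error only. The downstream region alone went from 481 to 400 shared contacts, a log2 ratio of -0.24 (-0.43 to -0.04). The interval of a sum lies below 0 here, but no single pair passed the test.

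Across all 15551 pairs in both H3K27ac lists, 0.135% differed by the exact two-sided binomial test at a Benjamini-Hochberg adjusted p under 0.05 (21 pairs, 15 higher and 6 lower after IAA). None of the 35 shared pairs of the 3 promoters did. At an unadjusted p under 0.05, the count was 1 of 35 against 4.41% of all shared pairs. That pair was the Klf2 start bin with chr8:72334001-72336000, the largest fall of the Klf2 pairs (log2 ratio -0.63, 95% interval -1.11 to -0.15, exact binomial p = 0.00830, adjusted p = 0.680). The largest rise was the start bin with the start of Ap1m1, which encodes a clathrin adaptor subunit, from 9 to 16 contacts (log2 ratio 0.86, -0.41 to 2.22). Over all shared pairs the median log2 ratio was 0.03 and the central 95% ran from -0.84 to 0.86. These members lay inside or at the edge of that spread between the pooled libraries. The spread takes in pairs of all contact counts and was not matched to the counts of these members.

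**Figure D2:**
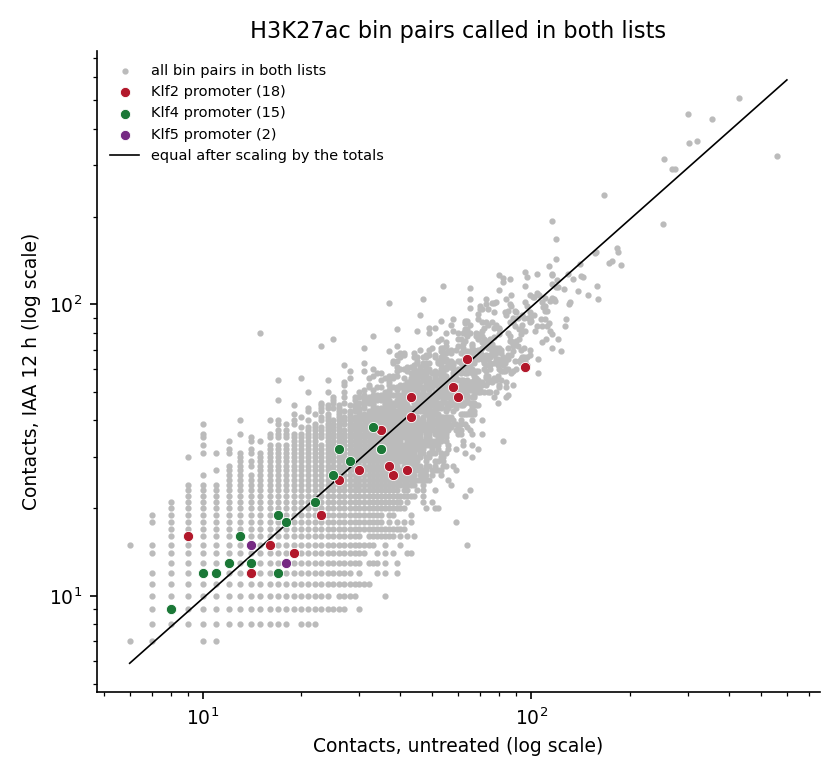
Contacts after IAA against untreated contacts for each bin pair in both H3K27ac lists, on log axes, with the 18 Klf2, 15 Klf4 and 2 Klf5 pairs coloured and a line for equal contacts after scaling. The coloured points lie within the cloud of all 15551 pairs, and the Klf2 pair with 96 untreated and 61 IAA contacts is the coloured point furthest right.

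The Klf2 pairs found in 1 list only were of different kinds. In the untreated list alone were 14 pairs with spans of 20 to 54 kb, in the IAA list alone 9 pairs with spans of 12 to 396 kb. The most contacts among untreated-only pairs were 20, between the bin before the start bin and chr8:72336001-72338000. The most among IAA-only pairs were 25, with chr8:72328001-72330000, both in the downstream region that stayed called. Untreated-only pairs also joined the body of Eps15l1, an endocytosis adaptor gene, at 4 bins between 28.0 and 46.0 kb downstream, with 10 to 15 contacts each. No pair of the Klf2 promoter with those bins was in the IAA list, where by the threshold of that list such a pair could have had up to 9 or 10 contacts uncalled (bounds on the log2 ratio of -0.11 to -0.56). Untreated q-values of these pairs ran from 3.2e-05 to 0.023, so not all were near the limit of being called. The 4 bins had 2 to 5 IAA pairs each with other places.

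IAA-only pairs of Klf2 reached promoters further away. The start bin met the start of Rab8a, a small GTPase gene 158 kb upstream, with 19 contacts, 12.7 times the prediction, and the bin before it met the same start with 9 contacts. The 19-contact pair, absent from the untreated list, had at most 7 contacts there as estimated from the threshold of that list, which puts its log2 ratio at 1.47 or more. The other partners of this kind were the start of Zfp617 at 396 kb (10 contacts), an intron of Tpm4 at 182 kb (8 contacts) and the start of Eps15l1 at 102 kb downstream (9 contacts). The start of Ap1m1, 78.0 kb upstream, had 1 pair with 9 contacts untreated and 3 pairs with 34 contacts after IAA. For these weaker pairs, the estimated bound on the log2 ratio was 0.20 to 0.54. Where such a pair was absent from the untreated list, its contacts there are unknown below the threshold, so the size of a change cannot be told. The partners in this paragraph were chosen after their values were seen.

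The Klf2 promoter lies under a strong CTCF interaction. In the CTCF list, 18 bin pairs span the start. The one with the most contacts joins chr8:72261001-72262000 to chr8:72365001-72366000 over 104 kb, with 76 contacts against 5.35 predicted, and the same pair had 41 contacts in the RAD21 list. Klf2 pairs with partners inside this interval numbered 31 with 853 contacts untreated and 19 with 620 contacts after IAA. Pairs with partners beyond it numbered 1 with 9 contacts untreated and 8 with 89 contacts after IAA. The CTCF pair with the most contacts over Klf4 (15 contacts, 1171 kb) starts 18.0 kb downstream, and 15 of 17 untreated and 16 of 18 IAA pairs of Klf4 had partners beyond it, with 286 and 305 contacts. For Klf5 the counts beyond its CTCF pair were 0 and 0. The split at these interactions was chosen after the values were seen, and for Klf2 it rests on few pairs, 5 of the 8 with under 10 contacts: with at least 10 required, the counts beyond it were 0 and 3. Of the 9 IAA-only pairs, 8 crossed a CTCF-list anchor, against 54.7% of all IAA-only pairs, which had a median span of 26 kb compared with 104 kb for those of Klf2. Among the untreated-only pairs of Klf2, 10 of 14 crossed an anchor, against 53.4% of all untreated-only pairs, and 14 of the 15 shared Klf4 pairs did, against 43.1% of all shared pairs, so crossing was not limited to pairs seen after IAA. The Klf2 counts include pairs of a flanking promoter bin that cross only chr8:72319001-72320000, an anchor inside the start bin itself. Examples are the IAA-only pair with chr8:72328001-72330000 and the untreated-only pair with chr8:72336001-72338000. The Klf2 shares without such pairs were not computed, so they cannot be set closely against the shares of all pairs. Longer pairs pass over more anchors, and the part of span in this share was not tested.

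**Figure D3:**
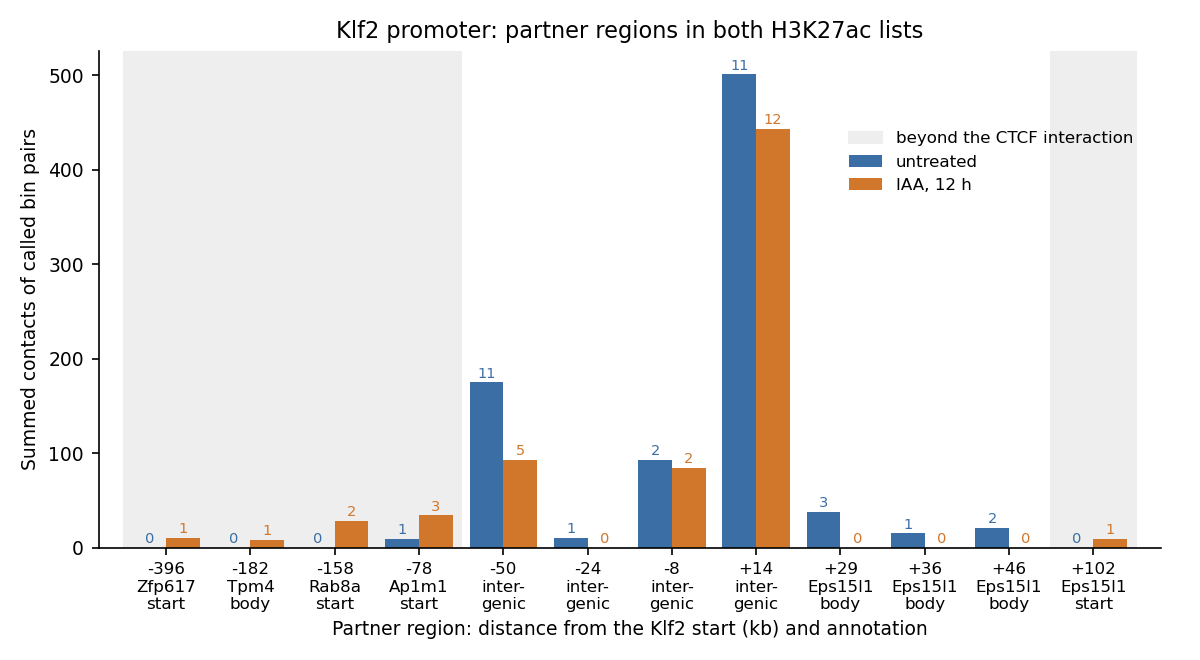
Summed contacts of called bin pairs in each partner region of the Klf2 promoter, untreated and after IAA, in order along the chromosome, with the number of pairs above each bar. Grey shading marks regions beyond the CTCF interaction of 104 kb over the promoter, where 1 pair was called untreated and 8 after IAA.

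The Klf2 promoter itself had CTCF pairs with contacts near the median of the CTCF list, which was 14. Its bin chr8:72319001-72320000 met chr8:72272001-72273000 with 13 contacts and, on the other side, chr8:72365001-72366000 in an intron of Eps15l1 with 14 contacts. Both distant bins are anchors of the CTCF pairs that span the gene, at 46.5 kb upstream and 46.5 kb downstream. The RAD21 list held 0 pairs within 2 kb of the Klf2 start. Just outside that distance, the RAD21 bin chr8:72316001-72317000, which lies in an H3K27ac promoter bin of Klf2, met chr8:72271001-72272000 with 9 contacts.

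The Klf4 promoter (ENSMUSG00000003032.8, chr4:55527143-55532466, minus strand, 3 transcripts) contacted 1 side only. All 10 of its partner bins lay downstream. The 5 intergenic bins of chr4:55472001-55482000, centred 55.5 kb from the start, held 85.5% of the untreated contacts in shared pairs. The bin pair chr4:55530001-55532000 with chr4:55476001-55478000 had 35 contacts untreated, 14.8 times the prediction, and 32 after IAA. The other bin that holds a start, chr4:55532001-55534000, met the same partner with 33 contacts untreated and 38 after IAA. That bin also met chr4:55474001-55476000 with 28 contacts untreated and 29 after IAA, and chr4:55478001-55480000 with 26 and 32. The bin chr4:55530001-55532000 met the latter partner with 25 and 26 contacts. The 5 pairs with the most contacts thus gave close counts in both lists.

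Of the 17 untreated Klf4 pairs, 15 were called again (88.2%, 95% Wilson interval 65.7 to 96.7%), against 42.9% of all untreated pairs. This interval takes the pairs as independent, but 11 of the 15 join neighbouring bins to 1 region, chr4:55472001-55482000. The share of all pairs was not matched for contacts, with a median of 17 for the untreated Klf4 pairs and 13 in the whole list. Contacts of the 15 pairs numbered 289 untreated and 302 after IAA, a log2 ratio of 0.09 (-0.14 to 0.33). It became -0.16 when scaled by the model totals and -0.14 when scaled by the coverage of the promoter bins. Of the 15 ratios, 11 were above 0 and 4 below, against 46.2% of all shared pairs below 0. With the model totals 3 were above and 12 below, against 72.0% of all below. Of the 15 pairs, 0 had an unadjusted p under 0.05 by the exact binomial test. The largest rises were 26 to 32 contacts with chr4:55478001-55480000 and 13 to 16 with chr4:55514001-55516000 (both log2 0.33). The largest fall was 17 to 12 contacts between chr4:55528001-55530000 and chr4:55478001-55480000 (log2 -0.47, 95% interval -1.67 to 0.68).

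Pairs of Klf4 in 1 list only lay beside shared ones. The untreated-only pair with the most contacts joined chr4:55532001-55534000 to chr4:55514001-55516000 with 16 contacts, and the IAA-only pair with the most joined chr4:55528001-55530000 to chr4:55516001-55518000 with 12. The most distant partner was the start of Rad23b, a DNA repair and proteasome adaptor gene, 181.5 kb downstream, with 8 contacts untreated and 9 after IAA. It was called in both lists, although 9 CTCF-list anchors lie between the bins. Gm12510, a long noncoding RNA gene in the annotation, was met at chr4:55464001-55466000 with 10 and 11 contacts untreated and 12 and 12 after IAA.

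The CTCF and RAD21 pairs of the Klf4 promoter had partners that the H3K27ac pairs also had. In the CTCF list, chr4:55531001-55532000 met chr4:55478001-55479000 with 13 contacts, and chr4:55530001-55531000 met chr4:55514001-55515000 with 37 contacts. In the RAD21 list, chr4:55530001-55531000 met chr4:55478001-55479000 with 15 contacts and chr4:55480001-55481000 with 12. The partners near 54.0 kb lie in the region that held most of the Klf4 H3K27ac contacts. Coverage of the bin chr4:55478001-55480000 was 13630 untreated and 15279 after IAA, the highest among the partner bins of the 3 genes.

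The Klf5 promoter (ENSMUSG00000005148.8, chr14:99298691-99315036, plus strand, 2 transcripts) had few pairs. It met chr14:99338001-99340000, 40.3 kb downstream, with 14 contacts untreated and 15 after IAA (log2 0.13, -1.02 to 1.29). It met chr14:99354001-99356000, 56.3 kb downstream, with 18 contacts untreated and 13 after IAA (log2 -0.44, -1.59 to 0.67). These 2 of its 4 untreated pairs were called again (95% Wilson interval of the share 15 to 85%, against 42.9% of all). Their sum went from 32 to 28 contacts, and with a log2 interval of -0.95 to 0.61 a change was not detectable at this depth.

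Untreated-only pairs of Klf5 reached upstream, to chr14:99276001-99278000 with 14 contacts and to chr14:99274001-99276000 with 11. IAA-only pairs came from the bin after the start bin and reached an exon of Klf5 itself with 14 contacts and chr14:99348001-99350000 with 9. The estimated bounds on the log2 ratios were -0.61 and -0.26 for the untreated-only pairs, in that order, and 0.14 and 0.20 for the IAA-only pairs. All 5 CTCF and RAD21 pairs of Klf5 ran upstream to 1 bin, chr14:99142001-99143000 in an intron of Pibf1, 156 kb away. CTCF contacts were 12 from chr14:99298001-99299000 and 16 from chr14:99301001-99302000. RAD21 contacts were 16 and 12 from the same bins and 11 from chr14:99299001-99300000. The H3K27ac lists held no pair between the Klf5 promoter and that bin.

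The CTCF motif core was looked for in the anchors of these CTCF and RAD21 pairs at the promoters and, per gene, of the shortest CTCF pair over the start and the one with the most contacts, allowing 1 mismatch, since CTCF interactions tend to have facing motifs. It was present in 5 of these 16 anchors and in 41.7% of all 1 kb CTCF-list anchor bins. Each line below is 40 bases (GRCm38) read along the strand of the match, with the core in capitals.
Klf2 spanning pair, left anchor, chr8:72261251-72261290, plus strand: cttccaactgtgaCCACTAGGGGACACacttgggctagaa
Klf4 promoter bin, chr4:55530435-55530474, minus strand: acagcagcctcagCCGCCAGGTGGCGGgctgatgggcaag
Klf4 shortest spanning pair, right anchor, chr4:56222638-56222677, minus strand: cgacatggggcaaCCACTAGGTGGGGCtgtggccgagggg
Klf5 upstream bin, chr14:99142424-99142463, plus strand: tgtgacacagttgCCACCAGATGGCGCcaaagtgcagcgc
Klf5 spanning pair, right anchor, chr14:99894904-99894943, minus strand: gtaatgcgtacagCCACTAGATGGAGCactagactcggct
The upstream bin of Klf5 was also the left anchor of the CTCF pair with the most contacts over this promoter, 752 kb long with 41 contacts and 35 in the RAD21 list, and its 2 core matches face each other. The right anchor of the Klf2 spanning pair held no match within these letters.

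The partner bins themselves had many further H3K27ac pairs. For Klf2, 102 second-step pairs were called untreated and 61 after IAA, 42 of them in both lists. Of the untreated ones 41.2% were called again (95% Wilson interval 32.1 to 50.9%), against 42.9% of all pairs. The partner bin with the most, chr8:72334001-72336000, had 21 untreated and 17 after IAA, followed by chr8:72332001-72334000 with 19 and 11. The bins chr8:72330001-72332000 and chr8:72270001-72272000 had 13 each untreated, with 6 and 5 after IAA. Of the 102 untreated pairs, 47 joined 2 partner bins of Klf2 to each other, against 26 of the 61 after IAA, with 22 in both lists.

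For Klf4, 44 second-step pairs were called untreated and 45 after IAA, 25 of them in both lists, and for Klf5 24 and 25, 16 in both. The share of untreated ones called again was 56.8% for Klf4 (95% Wilson interval 42.2 to 70.3%). It was 66.7% for Klf5 (46.7 to 82.0%), against 42.9% of all pairs. These intervals take the pairs as independent, although many share a partner bin or join neighbouring bins. The share of all pairs was not matched for contacts. The bin chr4:55476001-55478000 led for Klf4 with 12 and 13 pairs, and chr4:55474001-55476000 had 9 and 9. The bins chr4:55464001-55466000, chr4:55478001-55480000 and chr4:55480001-55482000 had 8 each untreated, with 9, 10 and 5 after IAA. For Klf5, chr14:99354001-99356000 led with 13 and 11, then chr14:99338001-99340000 with 7 and 11 and chr14:99348001-99350000 with 7 and 5. The log2 ratios of summed shared contacts were -0.11 (-0.25 to 0.02) for Klf2, -0.12 (-0.26 to 0.02) for Klf4 and 0.02 (-0.15 to 0.19) for Klf5. These intervals include 0 with the shared totals only. The model totals shift each by -0.25, which puts all of them below 0. With the shared totals, the smallest p among the second-step pairs belonged to the Gm12510 bin chr4:55464001-55466000 with chr4:55476001-55478000. This pair had 127 contacts untreated and 84 after IAA (exact binomial p = 0.00576, adjusted p = 0.597). In these second-step pairs the exact binomial test gave an adjusted p under 0.05 for 0 pairs of each gene, against 0.135% of all shared pairs. An unadjusted p under 0.05 was found for 3 of 42 shared pairs for Klf2, 3 of 25 for Klf4 and 0 of 16 for Klf5, against 4.41% of all.

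Other KLF and SP genes and other naive pluripotency and LIF pathway genes were set beside the 3. Of 23 KLF and SP genes, 18 had untreated pairs at the promoter and 13 had pairs after IAA. Klf9 had as many untreated pairs as Klf2 (32), and Klf3 and Klf10 had 19 each. For the 10 genes with shared pairs, scaled by the totals over all shared pairs, the median log2 ratio was -0.01 and 0 intervals excluded 0. Of 18 naive pluripotency and LIF genes, 16 had untreated pairs, with Esrrb (64) and Tbx3 (59) the highest. Among the 15 with shared pairs the median was -0.03, and Sox2 had the interval below 0, from 480 to 380 contacts (log2 -0.31, -0.51 to -0.11). Scaled by the shared totals, Klf2, at -0.19, had the other interval below 0 among the 28 genes. The model totals shift every log2 ratio and its interval by -0.25. That puts further intervals below 0, such as those of Klf9, Klf12, Pou5f1, Esrrb, Tfcp2l1, Tbx3, Zfp42 and Socs3.

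**Figure D4:**
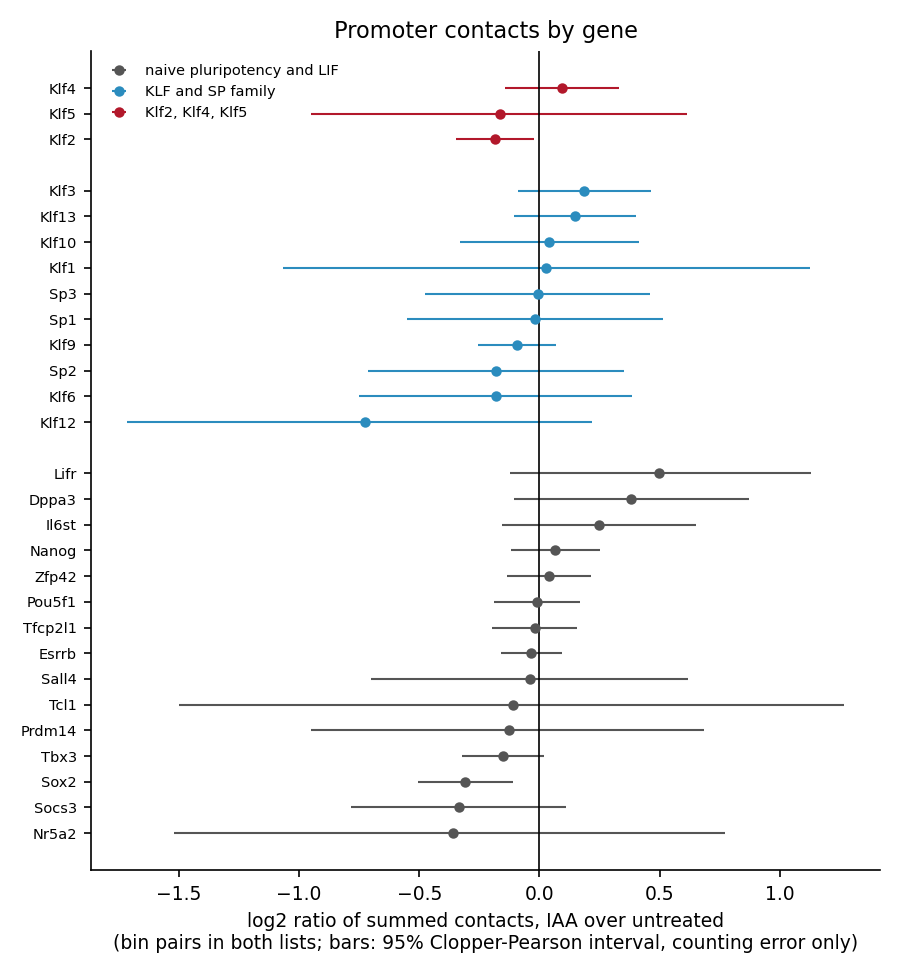
log2 ratio of summed contacts, IAA over untreated, for each gene with bin pairs in both H3K27ac lists, with 95% Clopper-Pearson intervals that cover counting error only. Scaled by the totals over all shared pairs, the intervals of Klf2 and Sox2 lie below 0, and those of the other 26 genes include it. The model totals would shift every interval by -0.25, which puts further ones below 0.

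The median log2 coverage ratio over the 16828 bins in both lists was 0.20, IAA over untreated. Among bins that hold a start, the ratio was 0.04 for Klf2 (8919 to 9162), 0.13 and 0.23 for Klf4 and 0.01 for Klf5 (4565 to 4591). The flanking promoter bins had ratios of 0.17 and 0.21 for Klf2 and 0.37 and 0.47 for Klf4. Scaled by the coverage of the promoter bins in place of the shared totals, the log2 ratios of summed contacts were -0.34 for Klf2, -0.14 for Klf4 and -0.20 for Klf5. With the expected split of each pair set by the coverage of both its bins, 0 of the 35 promoter pairs had an unadjusted p under 0.05 by the exact binomial test, against 3.37% of all shared pairs. With the model totals the count was 3 of 35, against 7.81% of all.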

How the data were processed

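Per the labels, MNase HiChIP was done with antibodies to H3K27ac, CTCF and RAD21, and all replicates of a group refer to 1 list, so the authors pooled them. Per the file headers, each row of a deposited list gives a contact count for a bin pair, the coverage of each bin as a count, a peak flag, predicted contacts (a model signal), the model's fraction of contacts and a q-value. The deposited q-values were all under 0.05. The submitters' processing notes name mm10, Trim Galore, BWA, MACS2 and deepTools; versions and calling settings are not given in the sources used here. Bins were 2 kb for H3K27ac and 1 kb for CTCF and RAD21. Predicted contacts divided by their fraction give the total behind the authors' H3K27ac models, 12551236 contacts without IAA and 14629323 with it. The median listed pair had 13 and 14 contacts, which limits the precision.

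A pair was shared when the same bins were in both H3K27ac lists. Its contacts were compared by an exact two-sided binomial test (scipy 1.17.1, Python 3.11.15), with the expected split from the totals over all 15551 shared pairs, 347765 contacts untreated and 340816 after IAA, and Benjamini-Hochberg adjustment over all of them. Intervals are 95%, Clopper-Pearson for ratios and Wilson for shares, and reflect counting alone, because each list is pooled over its replicates. Wilson intervals also take the bin pairs as independent. PCR reads that repeat a molecule may add spread that these intervals leave out. For a pair in 1 list, the most contacts it could have had uncalled in the other was estimated from a Poisson distribution at the predicted contacts, scaled by the median ratio of predictions (1.04), and the largest p in that list. The test was tested on simulated data. Sequences came from GRCm38, on which 0 bins lay beyond a chromosome end.

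Per gene, the text names the shared pairs with the most untreated contacts (5, or all where there are 8 or fewer), the largest rise and fall among shared pairs with 20 contacts or more over both lists, the strongest pair in 1 list only, the CTCF and RAD21 pairs and the 3 partner bins with the most second-step pairs, with ties. The members, gene lists and rules were chosen with earlier results of these data known. Alternatives changed the window, the q limit, a minimum of contacts, bin tolerance, scaling and the transcript set.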

Additional observations from a re-analysis of the deposited data

How the results depend on the processing

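Of 73 values recomputed under an alternative, 60 kept to the range set by counting error or stayed within 1.5 times and 13 moved. The log2 ratio of Klf4, whose interval includes 0, turned from 0.09 to -0.16 with the model totals and to -0.14 with promoter bin coverage; the promoter sums of Klf2 and Klf5 kept their sign under the alternatives run for them. With only the bin that holds a transcript start, Klf2 had 12 untreated pairs, 10 after IAA and 8 in both lists, and Klf5 had 2 after IAA. At a q of 0.01 or less, Klf5 had 2 pairs after IAA, and Klf4 had 2 CTCF and RAD21 pairs in place of 4. Scaling by the model totals shifts every log2 ratio by -0.25, which turns the sign of small positive ones such as the Klf5 second-step sum, and gave -0.44 for Klf2. Promoter pairs of the 3 genes with changed contacts numbered 0 under each scaling and at an adjusted p under 0.01; the smallest adjusted p (exact binomial) was 0.0519 with the model totals, where 60 of all shared pairs passed, and 1.00 with coverage, where 2 passed. Added after seeing the data, the counts of Klf2 pairs beyond the CTCF interaction were 0 untreated and 3 after IAA at a q of 0.01 or less, 0 and 3 with at least 10 contacts, and 1 and 3 from the start bin alone. Dropping the Klf4 transcript outside the basic set left the counts of untreated, IAA and shared Klf4 pairs and their log2 ratio within those limits. No paired analysis was possible because each list is pooled over its replicates, and leaving out each replicate in turn was not run for the same reason. Depth limits single pairs, whose median contacts untreated were 17.5 for Klf2, 17 for Klf4 and 14 for Klf5.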
